A study of Mus musculus with 4 samples.

Results

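The coelomic epithelium is the sheet of mesoderm that lines the body cavity. Over the genital ridge it covers the gonad, and cells that leave it in early development contribute to the supporting and interstitial lineages. It keeps features of a simple epithelium, such as keratins and an apical membrane domain, together with transcription factors of mesoderm. Its mature derivative, the mesothelium, is known for Upk3b, a uroplakin of the cell surface, and it is also a known site of retinoic acid synthesis through Aldh1a2.

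ESC-derived coelomic epithelium-like cells were taken from 1 scRNA-seq library of XY mouse embryonic stem cell aggregates at D6 of culture. The members were selected on measured UMIs of 6 genes. A cell was a member if it held 1 or more unique molecular identifiers (UMIs, which count transcript molecules) of Upk3b, no UMI of Pax8, Sox9, or Amh, and not both Star and Cyp11a1. Of the 2285 D6 cells retained with 1000 to 4000 detected genes and under 12% mitochondrial UMIs, 149 cells (6.52%, exact 95% interval 5.54 to 7.61) were members, among 10987 retained cells of the series. These cells were compared with the 2099 D6 cells without a UMI of Upk3b. Upk3b chose the cells, so its own level, 474 CPM (the UMIs of a gene over all UMIs of the group, times 1000000) in the members, is no finding. No interval here covers more than counting error, and no test was possible, because there was 1 library per condition.

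The D6 library came from line N271S9C, 1 line of XY ESCs with the transgenes that the labels name Nr5a1-hCD27a and Sox9-2A-CGFP. The strain is C57BL/6J in the labels, whereas in the methods the line descends from a 129X1/SvJ and C57BL/6J cross. The cells passed through epiblast-like cells and were then cultured with CHIR99021, BMP4, and EGF, from D2 with retinoic acid, Sonic hedgehog, PD0325901, EGF, and BMP4, and from D4 with BMP4, FGF9, and the Wnt inhibitor IWR1. Cells that displayed hCD271 from the Nr5a1 transgene were enriched on magnetic columns. The other 3 libraries were XY gonads of ICR embryos, 1 at E12.5 and 1 at E11.5, both without the mesonephros, and 1 at E10.5, with dorsal mesenchyme in the tissue. By the same rule they held 201, 217, and 264 cells with Upk3b. They were made with an earlier version of the kit, so kit, strain, culture, and sort cannot be told apart from origin in any comparison of D6 with them. No barcode of a retained D6 cell was shared with another library, and the in vivo libraries shared 7 to 15 barcodes with each other.

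The members held 974135 UMIs in all, with a median of 6417 UMIs and 2564 genes per cell, compared with 4512 UMIs and 2045 genes in the cells without Upk3b. The median share of mitochondrial UMIs was 3.19% and 3.55%. The doublet caller Scrublet marked 7 members (4.70%) and 1.72% of the cells without Upk3b. The members were thus deeper and more often marked, and the ratios below were recomputed with comparison cells weighted to the depth of the members and without the marked cells.

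Upk3b lies on chromosome 5 (GRCm38, plus strand, 136038496 to 136046487), Tm4sf5 on chromosome 11 (plus strand, 70505244 to 70511178), and Tmem151a on chromosome 19 (minus strand, 5070859 to 5085531). The sequences just before the start of these 3 markers and of Myl7, the gene with the largest ratio at D6, are shown because the 4 genes were high in the same cells. They were copied from RefSeq promoter windows on GRCm38.p6 and end before the annotated transcript start. The windows are chr5:136038246-136038495 for Upk3b, chr11:70505024-70505243 for Tm4sf5, chr19:5085532-5085741 on the minus strand for Tmem151a, and chr11:5898783-5899032 on the minus strand for Myl7. Each is written 5′ to 3′ on the strand of its gene, and capitals mark 3 motifs on either strand, which are GATAAG (known for GATA factors), CATTCC (known for TEAD factors), and CAAGGTC (known for NR5A1 and related receptors).
Upk3b: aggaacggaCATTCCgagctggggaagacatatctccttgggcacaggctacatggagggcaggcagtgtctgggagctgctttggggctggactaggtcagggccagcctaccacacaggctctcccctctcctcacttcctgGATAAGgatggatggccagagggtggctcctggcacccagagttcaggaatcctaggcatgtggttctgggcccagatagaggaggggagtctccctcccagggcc
Tm4sf5: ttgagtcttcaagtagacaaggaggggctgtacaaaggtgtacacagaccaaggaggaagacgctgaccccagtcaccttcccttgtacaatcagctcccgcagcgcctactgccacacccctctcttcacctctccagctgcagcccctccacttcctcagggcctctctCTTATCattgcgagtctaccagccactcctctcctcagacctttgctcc
Tmem151a: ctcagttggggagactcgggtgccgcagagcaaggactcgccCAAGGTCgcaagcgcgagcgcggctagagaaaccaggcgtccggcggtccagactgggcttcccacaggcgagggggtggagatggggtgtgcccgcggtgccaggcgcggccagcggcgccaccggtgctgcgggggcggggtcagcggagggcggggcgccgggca
Myl7: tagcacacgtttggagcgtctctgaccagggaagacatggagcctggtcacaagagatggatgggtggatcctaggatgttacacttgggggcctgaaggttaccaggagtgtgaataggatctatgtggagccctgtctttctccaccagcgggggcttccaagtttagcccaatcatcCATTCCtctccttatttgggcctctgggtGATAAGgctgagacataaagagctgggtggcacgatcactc

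GATAAG or its reverse complement CTTATC was present in the windows of Upk3b, Tm4sf5, and Myl7, and in 6.60% of the 27025 promoters of the same table over 250 bases. CATTCC or GGAATG was present in those of Upk3b and Myl7 and in 12.6% of all promoters. CAAGGTC or GACCTTG was present in that of Tmem151a and in 3.31% of all promoters. Of the 20 genes with the largest ratios at D6, 16 were in the table, and 2 of them held GATAAG, 3 CATTCC, and 1 CAAGGTC. The motifs were chosen after the sequences had been seen, and the 3 do not overlap with each other in these windows. A match of letters is a description and not a site of binding.

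Tm4sf5 and Tmem151a, the markers that the rule did not use, were both far more frequent in the members. Tm4sf5, a tetraspanin-like membrane protein, had 138 CPM (115 to 163) in the members and 5.73 CPM (4.38 to 7.36) in the cells without Upk3b. Tmem151a, a transmembrane protein, had 103 CPM (83.5 to 125) and 7.70 CPM (6.13 to 9.56). At least 1 of the 2 genes was detected in 97 of the 149 members (65.1%, 56.9 to 72.7) and in 97 of the 2099 cells without Upk3b (4.62%, 3.76 to 5.61). Both were detected in 34 members and in 10 of the cells without Upk3b. The label of these cells as coelomic epithelium-like thus fits its fixed markers, although Msln, a common mesothelial marker, had 0 UMIs in the members, which allows up to 3.08 CPM.

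The wider list of coelomic epithelium genes held 26 genes besides Upk3b. Ratios are log2 of (CPM + 10) in the members over (CPM + 10) in the cells without Upk3b, so that those of low genes are understated, and a gene is called at least 2-fold apart at 1 or more on this scale. A gene was compared where the mean of the 2 groups was at least 25 CPM, which held for 5951 genes, of which 144 (2.42%) were at least 2-fold higher and 161 (2.71%) at least 2-fold lower in the members. Of the 26 listed genes, 14 were at least 2-fold higher and none lower among the 16 above this limit. For 10 of the 16, the members alone lifted the gene over the limit. With no limit, 18 of the 26 were at least 2-fold higher and none lower on this scale. Of the other 8, Igfbp5, Bnc2, and Rarres2 were less than 2-fold apart, and Msln, Dmkn, and Lhx2 had 0 UMIs in the members. Nkain4 (6.16 and 18.2 CPM) and Cav1 (1.03 and 4.89 CPM) had lower values in the members, with overlapping intervals for Cav1, and they were under 2-fold on this scale only because of the 10 CPM added to each value.

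The list held 4 keratins of simple epithelia. Krt7 had 62.6 CPM (47.9 to 80.4) in the members and 1.503 CPM (0.859 to 2.44) in the cells without Upk3b. Krt19 had 142 CPM and 10.3 CPM, and Krt18 had 54.4 CPM and 5.83 CPM. Krt8 was nearer between the groups, with 42.1 CPM (30.2 to 57.1) and 9.58 CPM (7.81 to 11.6). Lrrn4, a leucine-rich repeat protein of mesothelial cells, had 68.8 CPM (53.3 to 87.3) and 1.88 CPM (1.15 to 2.90). Muc16, a large surface mucin, had 42.1 CPM and 0.564 CPM, and was below the limit. Bnc1, a zinc finger factor, had 29.8 CPM and 1.79 CPM and was also below it. For all of these genes, the intervals of the 2 groups did not overlap.

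**Figure D1:**
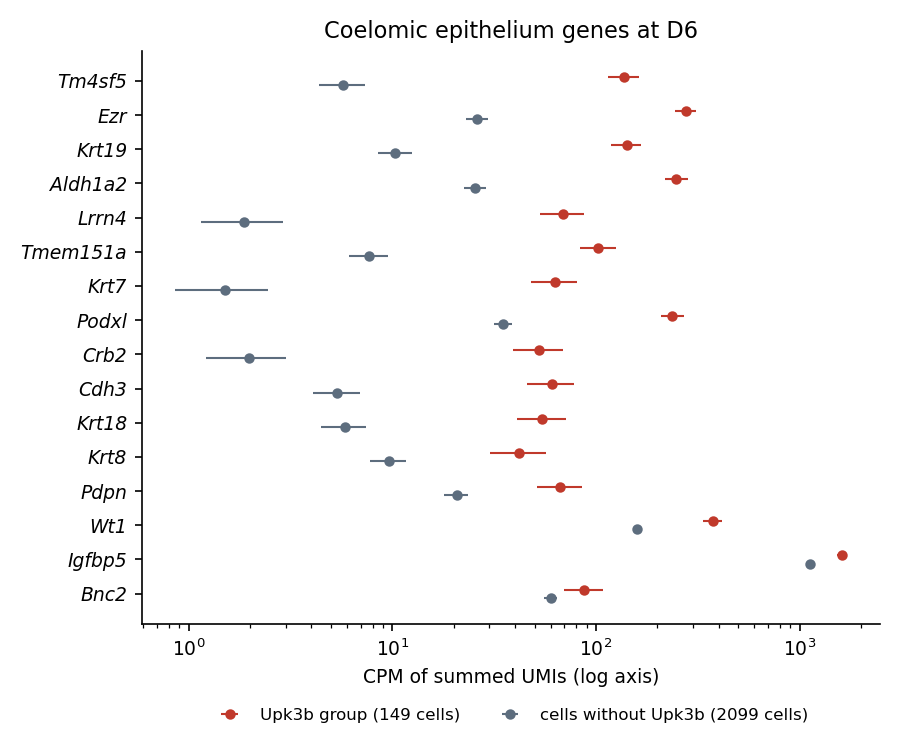
CPM of summed UMIs (log axis) of the 16 coelomic epithelium genes above the abundance limit at D6, in the Upk3b group (red) and in the cells without Upk3b (grey), with exact Poisson intervals. The 2 groups are apart by 2-fold or more for 14 genes, and nearest for Bnc2 (87.3 and 59.9 CPM) and Igfbp5.

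Igfbp5, a secreted protein that binds insulin-like growth factors, was the most abundant listed gene in the members, with 1613 CPM, and it was also high in the cells without Upk3b, with 1129 CPM. It therefore made up much of the sum of the list, which was 3766 CPM (3646 to 3890) in the members and 1557 CPM (1534 to 1581) in the cells without Upk3b. To follow the list within D6 without this gene and without the markers themselves, the other 23 genes were summed. They had 1913 CPM (1828 to 2002) in the members and 415 CPM (403 to 427) in the cells without Upk3b. A member carried a median of 8 of the 26 listed genes (10th to 90th percentile, 4 to 12), and a cell without Upk3b a median of 2. Every member carried at least 1, whereas 219 of the cells without Upk3b carried none.

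The cells just inside and just outside the threshold of 1 Upk3b UMI were described by the same sum, with the cells without Upk3b at 415 CPM in all. The 54 members with 1 UMI had 1497 CPM (1367 to 1635) of the 23 genes. The 26 members with 2 UMIs had 1899 CPM, the 28 with 3 UMIs had 2036 CPM, and the 41 with 4 or more had 2305 CPM (2135 to 2486). The step from 0 to 1 UMI was thus larger than that from 1 to 4 or more. Among the cells without Upk3b, the 2002 cells also without Tm4sf5 and Tmem151a had 385 CPM (373 to 397), whereas the 97 cells picked for Tm4sf5 or Tmem151a had 1007 CPM (922 to 1097). The comparison group therefore held some cells with a high sum of these genes, which draws the ratios of genes that are high in such cells toward 0. Nr5a1 had 68.2 CPM in these 97 cells and 177 CPM in the other 2002. The highest count of Upk3b in a member was 15 UMIs, and the median depth was 5618.5 UMIs in the members with 1 UMI and 6927 in those with 4 or more.

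**Figure D2:**
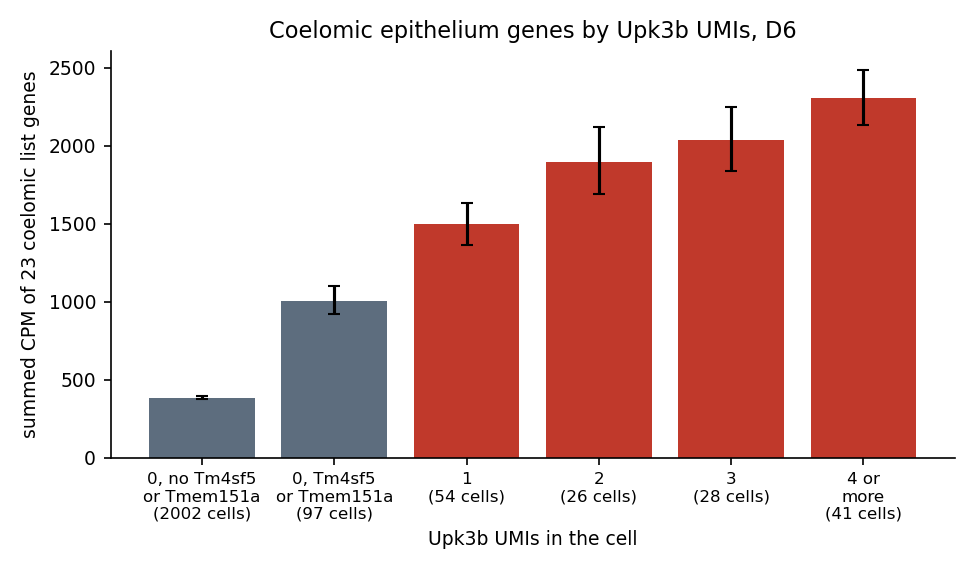
Summed CPM of 23 coelomic epithelium genes (without Upk3b, Igfbp5, Tm4sf5, and Tmem151a) in D6 cells by their Upk3b UMIs, with exact Poisson intervals. Red bars are members and grey bars are cells without Upk3b, and the sum ranges from 385 CPM at the left to 2305 CPM at the right.

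The exclusion genes removed 37 cells with Upk3b from the group. Of these, 30 held Sox9, the Sertoli cell factor, 5 held Pax8, 3 held both Star and Cyp11a1, and 1 held Amh, with some overlap. The 30 cells with Sox9 and Upk3b had 1974 CPM (1796 to 2166) of the 23 genes, an interval that overlaps that of the members. The 262 cells with Sox9 but without Upk3b had 518 CPM (482 to 556). Another 27 barcodes with Upk3b were removed by the cell filter, all of them because of 4000 or more detected genes. These had a median of 16201 UMIs and 1605 CPM (1492 to 1725) of the 23 genes. The rule thus leaves out some cells with a high sum of these 23 genes, of which the single genes were not compared. Scrublet marked 3 of the 37 left-out cells (8.11%).

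The 2285 D6 cells were also assigned in sequence to exclusive groups, first cells with Star and Cyp11a1, then with Sox9 or Amh, then with Pax8, then with Pdgfra and Nr2f2, markers of interstitial cells, and last those in none of these. Upk3b was detected in 3 of the 221 cells with both Star and Cyp11a1 (1.36%, 0.281 to 3.92), genes of steroid synthesis, at a median of 6637 UMIs per cell. Whether free RNA or doublets had a part in this or the other shares was not tested. The share with Upk3b was 10.4% (7.18 to 14.4) in the 298 cells of the Sox9 or Amh group. It was 4.76% (0.993 to 13.3) in the 63 cells of the Pax8 group. In the 489 cells of the Pdgfra and Nr2f2 group it was 3.48% (2.04 to 5.51), and in the remaining 1214 cells 10.9% (9.18 to 12.8). The median depth was 5166, 4393, 4549, and 4241 UMIs in these 4 groups. Thinned to 2000 UMIs per cell, the shares were 6.73%, 1.59%, 2.26%, and 6.91%, and 0.452% in the cells with Star and Cyp11a1. The interval of the Pax8 group overlapped those of all the others. Among the 14 cells with at least 3 of the endothelial genes Pecam1, Cdh5, Kdr, and Emcn, 0 held Upk3b (0%, 0 to 23.2).

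Apart from the list, the 20 genes with the largest ratios at D6 were named by a rule, with 50 or more UMIs in the members. For 13 of the 20, the level in the cells without Upk3b was below 25 CPM, so that they had to differ to be compared at all. Myl7, the regulatory myosin light chain known from the atrium of the heart, led them, with 265 CPM (234 to 299) in the members and 9.96 CPM (8.15 to 12.0) in the cells without Upk3b. It was detected in 49.0% of the members and in 2.76% of the other cells, and the log2 ratio was 3.78. Stk26, a kinase of the Ste20 family, followed Tm4sf5 with 190 CPM (164 to 219) and 12.7 CPM (10.6 to 15.0). Smim1, a small membrane protein, and Alcam, an adhesion molecule, were the most abundant of the 20, with 510.2 and 613 CPM in the members and 92.4 and 117 CPM in the other cells. Myrf, a membrane-anchored transcription factor, had 309 and 37.0 CPM, and Plxna4, a semaphorin receptor, had 131 and 17.6 CPM. Hpgd, which breaks down prostaglandins, had 86.2 and 9.11 CPM. Gbp2 and Gbp2b, GTPases known for their induction by interferon, had 103 and 80.1 CPM in the members and 7.33 and 6.67 CPM in the other cells, but these 2 genes are similar in sequence, and their counts may not be separate.

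The same 20 genes were then examined with the same rule in each in vivo library, where the ratio was again formed within the library. At E12.5, 113 (2.32%) of the 4864 genes compared were at least 2-fold higher in the Upk3b group and 146 (3.00%) lower, and the leading genes of D6 were at least 2-fold higher in 16 of the 16 above the limit. At E11.5, 71 (1.49%) of 4777 were higher and 139 (2.91%) lower, and the leading genes were higher in 14 of 14. At E10.5, 42 (0.869%) of 4832 were higher and 34 (0.704%) lower, and they were higher in 10 of 10. Over all 20 genes with no limit, the median log2 ratio was 2.69 at D6, 2.33 at E12.5, 1.99 at E11.5, and 1.37 at E10.5, where the median of all genes above the limit was -0.01, -0.03, 0.05, and 0.05. As in D6, the limit favors genes that are high in the Upk3b group. With no limit, 18 of the 20 were at least 2-fold higher at E12.5, 18 at E11.5, and 14 at E10.5, where Krt7 (log2 ratio -0.46), Hpgd (-0.24), and Plxna4 (0.03) were among those that were not.

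Myl7 had 265 CPM in the Upk3b group of D6, 503 CPM at E12.5, 430.5 CPM at E11.5, and 69.6 CPM at E10.5, each against 9.96 to 34.5 CPM in the cells without Upk3b of the same library. Tm4sf5 had 138, 159, and 243 CPM in the Upk3b groups of D6, E12.5, and E11.5, but only 5.87 CPM at E10.5, so that it was lowest at E10.5. Krt7 and Hpgd were also lowest at E10.5, with 3.78 and 5.03 CPM there and 61.0 to 145 CPM in the Upk3b groups of the other libraries. Gbp2, Gbp2b, and Plxna4 were high mainly at D6. For Plxna4, the Upk3b groups had 131 CPM at D6, 31.6 CPM at E12.5, 17.6 CPM at E11.5, and 1.68 CPM at E10.5.

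**Figure D3:**
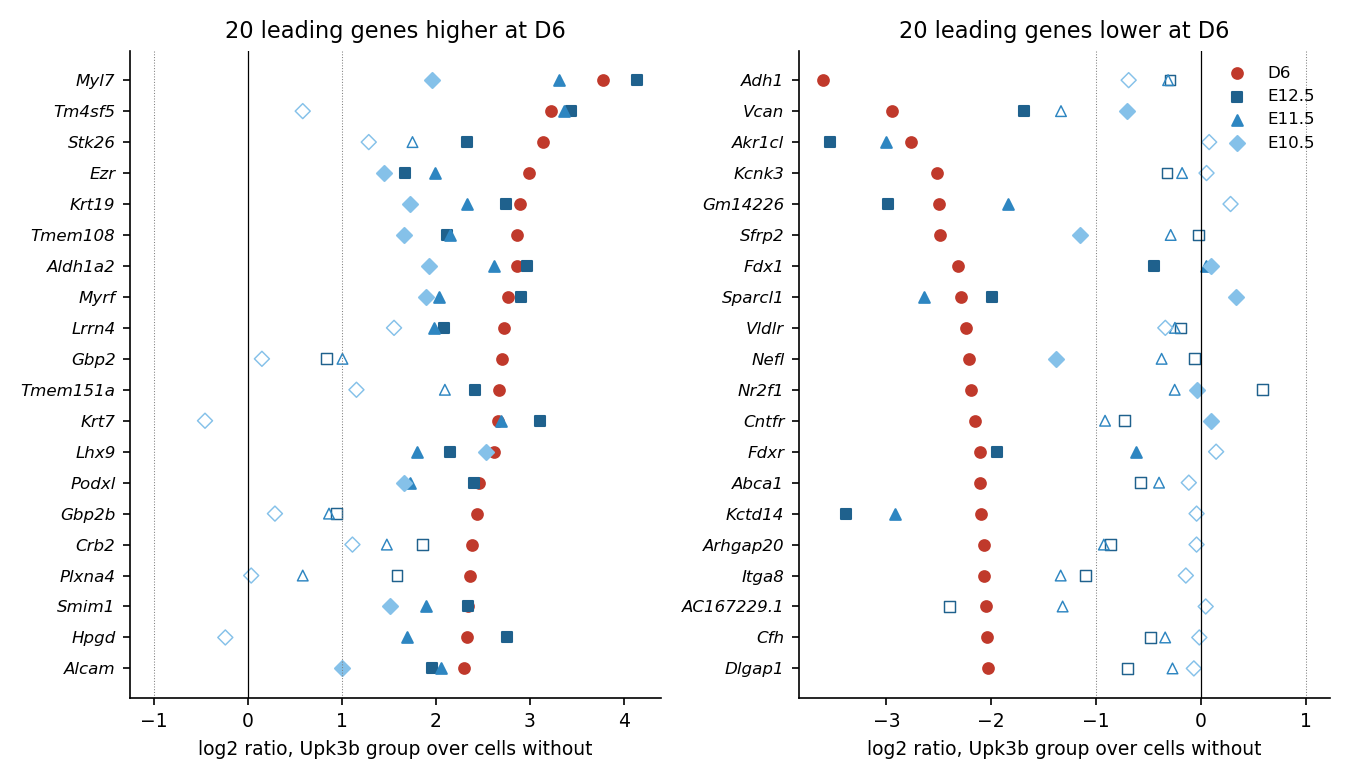
Log2 ratio of the Upk3b group over the cells without Upk3b in each library, for the 20 leading genes higher (left) and lower (right) at D6. Filled symbols are genes above the abundance limit in that library and open symbols those below it, and dotted lines mark 2-fold. Filled symbols at the left all lie at or beyond 1, whereas several genes at the right, such as Fdx1, are near 0 in vivo.

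Over all genes, 143 besides those of the rule were at least 2-fold higher at D6. Of these, 98, 95, and 62 were above the limit at E12.5, E11.5, and E10.5, and the rest could not be counted as shared there. In all, 53 (37.1% of the D6 genes, and 47.3% of those higher at E12.5) were also at least 2-fold higher at E12.5, 46 (32.2% and 65.7%) at E11.5, and 24 (16.8% and 58.5%) at E10.5, where 2.32%, 1.49%, and 0.869% of all genes were. None was at least 2-fold lower in any of these 3 libraries. Of the 159 genes at least 2-fold lower at D6, 67, 70, and 67 were above the limit at E12.5, E11.5, and E10.5, and 30 (18.9% and 20.8%) were also lower at E12.5, 31 (19.5% and 22.5%) at E11.5, and 5 (3.14% and 14.7%) at E10.5, whereas 2, 1, and 4 were at least 2-fold higher.

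Several genes of the apical surface and of cell junctions were high in the members. Of the 31 genes of this list besides those of the rule, 19 were below the limit, and of the other 12, 7 were at least 2-fold higher and none lower, where 2.42% of all genes were higher. Of these 12, 4 passed the limit only through the members and had to be higher to be counted. Ezr, which ties the apical membrane to actin, had 276 CPM (244 to 311) in the members and 26.1 CPM (23.1 to 29.4) in the cells without Upk3b. Podxl, a sialomucin of the apical surface, had 237 CPM (208 to 270) and 35.0 CPM (31.5 to 38.7). Crb2, a Crumbs protein that sets up the apical domain, had 52.4 and 1.97 CPM, and Mpp5, its partner inside the cell, had 123 and 36.0 CPM. Cdh3, a classical cadherin, had 60.6 and 5.36 CPM, and the other genes at least 2-fold higher were Slc9a3r1 and F11r. Cdh1, the cadherin of most epithelia, had 0 UMIs in the members, and so did Ocln, Cldn3, Cldn4, Cldn6, and Cldn7. Cdh2, the cadherin of mesenchyme and nerve, had 62.6 CPM in the members and 108 CPM in the other cells. Of 10 genes of the basement membrane above the limit, none was 2-fold apart in either direction, and the median log2 ratio was -0.14.

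The sum of the fibrillar matrix genes was lower in the members than in the other D6 cells (1169 and 2955 CPM), but not in vivo. There the Upk3b groups had the higher sums, with 871 and 660 CPM at E12.5. The values were 574 and 474 CPM at E11.5 and 844 and 579 CPM at E10.5. The direction at D6 was thus the opposite, and the difference between libraries was not tested. The sum in the D6 members was itself not lower than in these groups, and the comparison cells differed in make-up. In the cells without Upk3b, the erythroid list had 11602 CPM at E11.5 and 16272 CPM at E10.5, but 0.188 CPM at D6. The germ cell and pluripotency list had 2374 CPM in them at E12.5 and 19.4 CPM at D6. Whether this make-up had a part in the direction was not tested. Of the 19 genes of this list, 14 were above the limit, and 8 of these were at least 2-fold lower and none higher, with a median log2 ratio of -1.19 compared with -0.01 over all genes. Of the 14, 1 passed the limit only through the cells without Upk3b. Vcan, a large proteoglycan, had 35.9 CPM (25.0 to 50.0) in the members and 345 CPM (334 to 356) in the cells without Upk3b. Col1a1, a chain of type I collagen, had 212 and 769 CPM, and Col1a2, its partner chain, had 210.4 and 521 CPM. Col3a1 was nearer, with 232 and 312 CPM. In vivo, Vcan was also lower in the Upk3b group, with 9.79 and 53.7 CPM at E12.5. It had 4.94 and 27.7 CPM at E11.5, and 31.0 and 57.1 CPM at E10.5. In contrast, Dcn was at least 2-fold higher in the Upk3b group of each in vivo library, and Postn was at E10.5. Among 11 genes of mesenchymal identity, 9 were above the limit at D6. Of these, Twist1, Zeb2, Prrx1, Snai1, and Zeb1 were at least 2-fold lower, where 2.71% of all genes were. Twist1, Prrx1, and Snai1 passed the limit only through the cells without Upk3b, so that these 3 had to be lower to be counted. Zeb2, a repressor of epithelial genes, had 133 CPM in the members and 485 CPM in the other cells. Snai2, a factor of the same kind, had 127 and 94.0 CPM and was not 2-fold apart.

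**Figure D4:**
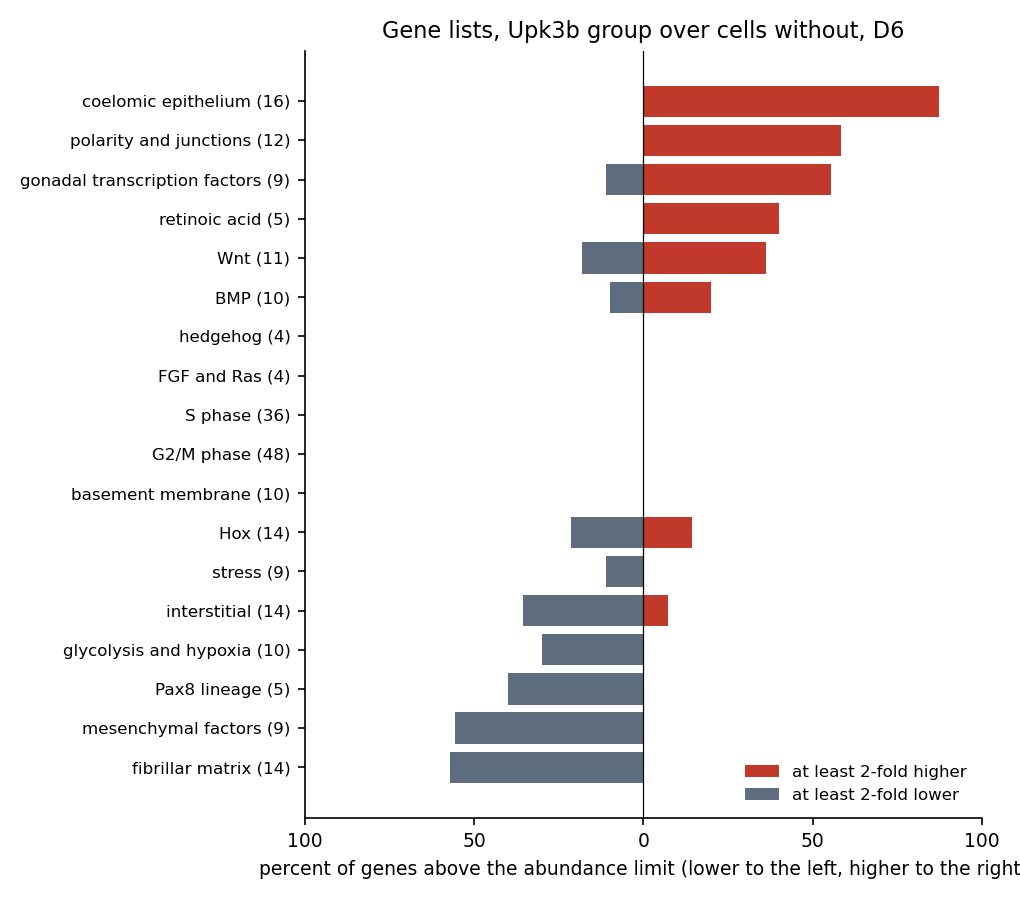
Share of the genes above the abundance limit that were at least 2-fold higher (red, to the right) or lower (grey, to the left) in the members than in the D6 cells without Upk3b, for each gene list with 4 or more such genes (number in parentheses). Coelomic epithelium genes (14 of 16 higher) are at one end and fibrillar matrix genes (8 of 14 lower) at the other.

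Transcription factors of the early gonad were divided. Lhx9, a LIM homeobox factor needed for gonad formation, had 320.3 CPM (286 to 358) in the members and 43.7 CPM (39.8 to 47.8) in the cells without Upk3b. Emx2, a homeobox factor of the urogenital ridge, had 200.2 CPM (173 to 230.3) and 38.2 CPM (34.6 to 42.1). Tcf21, a basic helix-loop-helix factor, had 545 and 166 CPM, Wt1, which is found in the coelomic epithelium and the gonad, had 375 and 159 CPM, and Hmgn5 had 114 and 49.1 CPM. These 5 of the 9 listed factors above the limit were at least 2-fold higher, where 2.42% of all genes were higher and 2.71% lower. Gata4 (140 and 85.9 CPM), Gata6 (366 and 332 CPM), and Zfpm2 (104 and 101 CPM) were less than 2-fold apart. With no limit, 5 of the 16 listed factors were at least 2-fold higher and 3 lower.

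Nr5a1, the nuclear receptor of the gonad whose transgene was used for the sort, was the only listed factor above the limit that was at least 2-fold lower. It had 74.9 CPM (58.7 to 94.2) in the members and 171 CPM (164 to 179) in the cells without Upk3b, a log2 ratio of -1.09. The shares of cells with a UMI were close, with 30.9% in the members and 28.8% in the other cells, and 14.1% and 17.8% after thinning to 2000 UMIs. When cells with Pax8, Sox9, Amh, or both Star and Cyp11a1 were also left out of the comparison cells, the ratio turned to 0.21, so that its direction depends on those cells. In the in vivo libraries, Nr5a1 had 22.5 and 47.1 CPM at E12.5, 29.6 and 74.0 CPM at E11.5, and 15.5 and 2.02 CPM at E10.5, in the Upk3b group and the other cells. Against all cells without Upk3b, the Upk3b group was thus the lower at D6, E11.5, and E12.5 and the higher at E10.5. The part of the exclusion genes in this direction was examined at D6 only.

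Members with and without Nr5a1 had overlapping intervals for the coelomic genes. The 46 members with a UMI of Nr5a1 had 2005 CPM (1857 to 2160) of the 23 genes, and the 103 members without had 1864 CPM (1759 to 1974). The median depth was 7259.5 and 5884 UMIs. A missing UMI at this depth does not show that the gene was off.

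Signaling genes showed a few large differences. In retinoic acid metabolism, Aldh1a2, which makes retinoic acid, had 248 CPM (218 to 282) in the members and 25.6 CPM (22.6 to 28.8) in the cells without Upk3b, and it was detected in 78.5% and 8.24% of cells. Aldh1a3, another enzyme of this step, had 94.4 and 27.4 CPM. These 2 were at least 2-fold higher among 5 of the 16 listed genes above the limit, where 2.42% of all genes were. Aldh1a3 had 1.68 to 2.47 CPM in the in vivo Upk3b groups, whereas Aldh1a2 had 230 to 344 CPM there.

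In the Wnt pathway, 4 of the 11 genes above the limit were at least 2-fold higher and 2 lower, of 26 on the list, where 2.42% and 2.71% of all genes were. Of the 11, 3 (Dkk1, Lef1, and Axin2) passed the limit only through the members and 1 (Sfrp2) only through the other cells, so that these could be counted only by differing. Dkk1, a secreted inhibitor, had 45.2 and 6.20 CPM, Rspo1, a secreted amplifier of the signal, had 82.1 and 30.7 CPM, and Lef1 and Axin2, a factor and a target of the pathway, had 45.2 and 42.1 CPM in the members and 11.1 and 14.1 CPM in the other cells. Sfrp2 and Sfrp1, which are secreted inhibitors, had 18.5 and 80.1 CPM in the members and 150 and 266 CPM in the other cells. In the BMP pathway, Id4 (68.8 and 8.36 CPM) and Id1 (334 and 160 CPM), which are common targets, were at least 2-fold higher, and the ligand Bmp4 (8.21 and 49.3 CPM) was lower, among 10 genes above the limit, where 2.42% of all genes were higher and 2.71% lower. Id4 passed the limit only through the members and Bmp4 only through the other cells. None of the 3 Notch, 4 hedgehog, and 4 FGF genes above the limit was 2-fold apart.

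Positional factors were also divided. Hoxd9 had 159 CPM in the members and 29.4 CPM in the cells without Upk3b, and Hoxd8 had 82.1 and 24.0 CPM and passed the limit only through the members. Hoxb3, Hoxa5, and Hoxb8 were at least 2-fold lower, among 14 of the Hox genes above the limit, where 2.42% of all genes were higher and 2.71% lower, but these 3 passed it only through the cells without Upk3b and had to be lower to be counted. Of the 14, 4 in all passed only in this way, and 2 only through the members. Of the 12 genes of the epicardial list, Tcf21 and Hand2 were the only 2 above the limit, and both were at least 2-fold higher, where 2.42% of all genes were. Hand2, a factor of lateral plate mesoderm, had 76.0 and 14.9 CPM and passed the limit only through the members. Tbx18, known from the epicardium, had 7.19 and 13.1 CPM, and Hand1, Nkx2-5, and Tbx5 had 0 UMIs in the members.

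The 20 genes with the smallest ratios were named by the same rule. For 13 of the 20, the level in the members was below 25 CPM, so that they had to differ to be compared. Fdx1 and Fdxr, which pass electrons to steroid-forming enzymes, had 41.1 and 17.5 CPM in the members and 244 and 108 CPM in the cells without Upk3b. Because the rule leaves out members with both Star and Cyp11a1, these values partly follow from it. When cells with Pax8, Sox9, Amh, or both Star and Cyp11a1 were all left out of the comparison group, Fdx1 and Fdxr were the only 2 of the 20 that were no longer 2-fold lower, and the part of each gene was not separated. Nr2f1, a nuclear receptor of mesenchyme, had 85.2 CPM (67.9 to 106) in the members and 426 CPM (413 to 438) in the other cells. Adh1, an alcohol dehydrogenase, had 7.19 and 199 CPM, Sfrp2 was also among the 20, and Abca1, which exports cholesterol, had 15.4 and 99.2 CPM. Akr1cl, an aldo-keto reductase, had 41.1 and 338 CPM, and Kctd14 had 54.4 and 266 CPM. In vivo, few of these genes were above the limit, and 6 of 7 were at least 2-fold lower at E12.5, 4 of 6 at E11.5, and 2 of 7 at E10.5, where 3.00%, 2.91%, and 0.704% of all genes were. With no limit, 8, 7, and 2 of the 20 were at least 2-fold lower, and the median log2 ratio was -0.71, -0.51, and -0.04.

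Markers of other cell types were mostly low in the members. The endothelial list had 54.4 CPM in the members and 112 CPM in the cells without Upk3b, with Kdr the most abundant at 22.6 CPM and 6 of 10 genes at 0, Cdh5, Emcn, and Tek among them. All 7 erythroid genes were at 0 in the members, with a sum of 0.188 CPM in the other cells. Of 7 macrophage genes, 6 were at 0, and the sum was 3.08 CPM, all from Csf1r, and 0.564 CPM in the other cells, with overlapping intervals. The germ cell and pluripotency list had 12.3 and 19.4 CPM, with Dazl and Ddx4 among 7 of 11 genes at 0. The neural list had 33.9 and 179 CPM, with Nefl the most abundant at 12.3 CPM and 7 of 12 genes at 0. The endothelial sum (40.8 to 71.2 in the members, 105 to 118 in the others) and the neural sum (23.3 to 47.6 and 171 to 187) were lower in the members beyond counting error, whereas the intervals of the germ cell sum (6.37 to 21.5 and 16.9 to 22.3) overlapped. Of the Sertoli list, 52.4 CPM was found in the members and 227 CPM in the other cells, with 6 of 14 genes at 0, and of the steroidogenic list 66.7 and 516 CPM, with 5 of 10 at 0. The rule uses genes of both lineages, so these values partly follow from it. The list of the Pax8 lineage had 821 and 1037 CPM, most of it from Itm2a (492 CPM in the members). Of the pancreas and endoderm list, 12 of 15 genes were at 0, and 25.7 of 27.7 CPM came from Pnlip, a lipase of the exocrine pancreas, which had 6.01 CPM in the cells without Upk3b. Among the other uroplakins, Upk2, Upk3a, and Upk3bl had 0 UMIs, and Upk1b had 16.4 CPM in the members. Interstitial genes remained present, and their sum was 3062 CPM in the members and 4128 CPM in the other cells, with Nr2f2 the most abundant at 776 and 1085 CPM. Of the 14 interstitial genes above the limit, Nr2f1, Pdgfra (24.6 and 89.2 CPM), Pdgfrb, Col1a2, and Igf1 were at least 2-fold lower. Pdgfra and Pdgfrb passed the limit only through the cells without Upk3b, so that these 2 had to be lower to be counted. Tcf21, which is also on this list, was at least 2-fold higher, with 545 and 166 CPM. Over all genes, 2.71% were lower and 2.42% higher. Whether RNA of such cells had a part in these values was not tested.

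Cell cycle genes were moderately higher in the members. The S phase list had 3495 CPM in the members and 2450 CPM in the cells without Upk3b, and the G2/M list had 8213 and 5454 CPM, although no gene of the 36 and 48 above the limit was 2-fold apart. Mki67 or Top2a, markers of cycling cells, were detected in 81 members (54.4%, 46.0 to 62.5) and in 32.9% (30.9 to 34.9) of the other cells, and in 40.9% and 26.5% when cells were thinned to 2000 UMIs. In vivo, the thinned shares were 40.3% and 35.9% at E12.5, 33.5% and 24.5% at E11.5, and 39.9% and 38.7% at E10.5. The 81 cycling members had 1874 CPM (1765 to 1989) of the 23 coelomic genes and the other 68 had 1972 CPM (1835 to 2117). Of the genes of glycolysis and hypoxia, 10 were above the limit, and none of these was at least 2-fold higher. Ldha (157 and 413 CPM), Bnip3 (9.24 and 63.7 CPM), and Pfkl (27.7 and 80.1 CPM) were at least 2-fold lower, where 2.71% of all genes were. Bnip3 passed the limit only through the cells without Upk3b.

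Last, the members were set against the in vivo Upk3b groups directly, a comparison in which kit, strain, culture, and sort cannot be told apart. Against E12.5, 769 (14.1%) of 5435 genes were at least 2-fold higher in D6 and 180 (3.31%) lower. With TMM factors, which shift these ratios by -0.39 on the log2 scale, the counts were 377 and 616, so that their balance depends on the scaling. Against E11.5, 939 (17.4%) of 5396 were higher and 190 (3.52%) lower, and against E10.5 988 (17.8%) of 5544 and 479 (8.64%). Across 5176 genes, which share libraries and are not independent, the log2 levels of the members had Pearson's r of 0.842 with the E12.5, 0.830 with the E11.5, and 0.753 with the E10.5 Upk3b group, and of 0.941 with the D6 cells without Upk3b. With the in vivo cells without Upk3b, r was 0.790 at E12.5, 0.810 at E11.5, and 0.739 at E10.5, close to the values of the Upk3b groups. The highest of these r was thus with cells of the same library.

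The coelomic genes were also compared between D6 and E12.5. Of 18 listed genes above the limit, 5 were at least 2-fold higher in D6 (Igfbp5, Bnc2, Podxl, Muc16, and Ezr), and Krt7 and Krt18 were at least 2-fold lower, where 14.1% and 3.31% of all genes were. Muc16 (42.1 and 13.8 CPM) passed the limit only through D6, so that it had to be higher to be counted. The median log2 ratio of the 18 genes was 0.28, and that of all genes 0.12. With TMM factors, only Igfbp5 remained at least 2-fold higher, and Krt7 and Krt18 were still lower. Against E11.5, 6 of 18 were at least 2-fold higher and 0 lower, where 17.4% and 3.52% of all genes were. Against E10.5, 8 of 17 were higher and 2 lower, where 17.8% and 8.64% were. Krt7 had 115 CPM at E11.5 and 3.78 CPM at E10.5, and Krt18 had 72.0 and 448 CPM. Aldh1a2 had 248 CPM at D6 and 260.4 CPM at E12.5, Wt1 had 375 and 332 CPM, and Tm4sf5 had 138 and 159 CPM. Igfbp5 had 1613 CPM at D6 and 136, 230, and 128 CPM at E12.5, E11.5, and E10.5. Lhx9 had 320.3 CPM at D6, between 101 CPM at E10.5 and 555 CPM at E12.5.

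**Figure D5:**
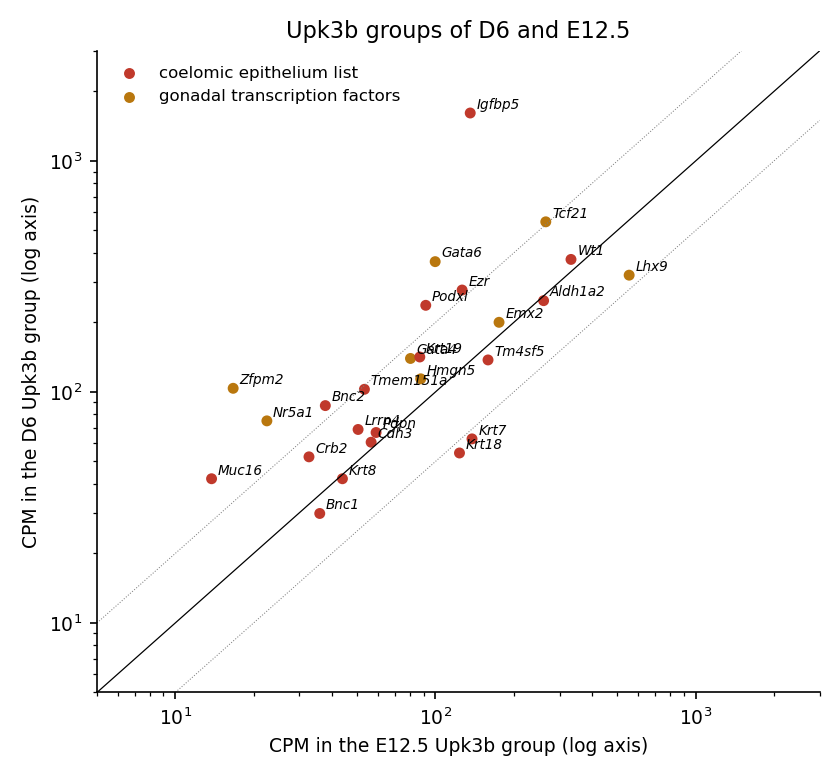
CPM in the Upk3b groups of E12.5 (horizontal) and D6 (vertical), both on log axes, for coelomic epithelium genes (red) and gonadal transcription factors (brown) above the abundance limit. The solid line marks equal values and dotted lines mark 2-fold. Igfbp5 (1613 and 136 CPM) lies far above the line and Krt7 and Krt18 below it.

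In all, 574 genes were at least 2-fold higher in D6 than in both E11.5 and E12.5, and 125 were at least 2-fold lower. These counts rest on library totals, and against E12.5 alone the balance turned with TMM factors. The 10 most apart in the first direction were mt-Atp8, mt-Nd4l, and 8 genes with model or clone names, such as Gm42418 (968 CPM at D6 and 34.8 to 50.5 CPM in vivo). mt-Atp8 had 1269 CPM in the members and 1294 CPM in the D6 cells without Upk3b, compared with 26.8 to 42.7 CPM in vivo, so that it was high in both groups of the D6 library. Gm13075 had 197 CPM in the members, 35.8 CPM in the other D6 cells, and 0 to 2.94 CPM in vivo, and Gm45889 had 537 CPM, 201 CPM, and 12.2 to 27.2 CPM. Both were thus at least 2-fold higher in the members than in the other D6 cells, and high in both groups of D6 compared with the Upk3b groups in vivo. In the other direction, Nnat, an imprinted gene, had 1.03 CPM in the members and 1.41 CPM in the other D6 cells, but 348, 226, and 537 CPM in the Upk3b groups of E12.5, E11.5, and E10.5. Gsto1, a glutathione transferase, had 18.5 CPM and 178 to 229 CPM in vivo, and Ckb, a creatine kinase, had 19.5 CPM and 31.0 to 153 CPM. The other 7 were Rpl23a, Tpm3-rs7, and genes that may be copies of others, whose counts may be shared with their parent genes.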

How the data were processed

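For each of the XY libraries, the authors deposited UMI counts per gene and barcode, which are whole numbers without normalization and were made on mm10. Per the labels, Cell Ranger 3.0.2 was used, whereas the file headers name 6.0.0. Cells were retained by the limits of the methods, with more than 1000 and fewer than 4000 genes and less than 12% mitochondrial UMIs at D6, 1000, 4000, and 10% at E10.5, 500, 5000, and 20% at E11.5, and 2000, 5000, and 8% at E12.5. This left 11906360 UMIs at D6 and 32508523, 24625441, and 34173977 in vivo. The members and the gene lists were chosen with earlier results of these data known.

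UMIs were summed over the cells of a group and divided by all UMIs of the group (CPM). Ratios were log2((CPM + 10)/(CPM + 10)) for genes with a mean of at least 25 CPM. Intervals are at 95%, exact Poisson for sums and Clopper-Pearson for shares. The limit given for a count of 0 is 3 counts. Named genes are listed genes, the 20 genes per direction with the largest and smallest ratios at D6 and 50 or more UMIs in the group where they are higher, without the 6 genes of the rule, and the 10 per direction most apart from both E11.5 and E12.5. Other statements single out genes from these lists.

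Doublets were marked with Scrublet in scanpy 1.11.5 (expected rate 0.8% per 1000 cells) and stayed in the groups. At D6 and E10.5 the cells with the highest scores were marked at the expected number. TMM factors came from edgeR 4.0.16. Counts were simulated for the D6 comparison as Poisson draws on the group totals, with no variation between cells, and 5952 genes were compared. Changed genes were drawn from those with at least 25 CPM in the cells without Upk3b. With a true mean over the limit, 97.6% of genes changed 5-fold and 90.1% of those changed 3-fold were past 2-fold. Of 5778 unchanged genes, 0% were, which follows largely from this setting and is no error rate for the genes called. Gene positions are from GENCODE vM21 on GRCm38, in which 30934 of 31053 identifiers were found. The alternatives were 10 settings listed at the start and 2 added after seeing the data. The work used Python 3.11.15 with matplotlib 3.10.9, pandas 2.3.3, scipy 1.17.1, and numpy 2.4.6.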

Additional observations from a re-analysis of the deposited data

How the results depend on the processing

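No paired analysis was possible because each condition had 1 library. The 20 leading genes higher at D6 stayed at least 2-fold higher under all 12 alternatives. Some of these could hardly fail. Dropping the limit leaves each ratio as it was, a pseudocount of 1 CPM only enlarges it, and TMM factors shift it by 0.03. The smallest log2 ratio was 1.26, for cells grouped by Tm4sf5 or Tmem151a in place of Upk3b, which holds 2 of the 20 by construction. The 20 lower genes stayed at least 2-fold lower except Fdx1 and Fdxr (comparison cells without the exclusion genes) and 13 of them for cells grouped by Tm4sf5 or Tmem151a. The coelomic list had 12 to 18 genes at least 2-fold higher with the Upk3b group.

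The share of D6 cells in the group was 4.16% with 2 or more Upk3b UMIs, 4.72% after thinning to 2000 UMIs, 8.14% with no exclusion genes, and 2.98% for the 68 members without Mki67 and Top2a, over all 2285 cells. The genes lower at D6 numbered 343 with no limit on low values. The log2 ratio of Nr5a1 was 0.21 with comparison cells without the exclusion genes, -0.64 after thinning, and -1.49 without cells that held Mki67 or Top2a. Against E12.5, 377 genes were higher and 616 lower with TMM factors, 420 were lower after thinning, and 274 with a pseudocount of 1 CPM.

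Cells with Tm4sf5 or Tmem151a but no Upk3b that also passed the exclusion genes (84 cells, 3.68%) gave 69 genes higher and 56 lower at D6. They gave 6 coelomic genes, 10 leading genes at E12.5, and 390 genes lower than at E12.5. The log2 ratio was -1.44 for Nr5a1, 0.37 for Osr1, and -0.014 for Upk1b. With the Upk3b group, Upk1b was 2.59-fold higher with 10 CPM added to each value, so this higher level was lost. Of 69 named genes followed, 2 that were at least 2-fold apart with the Upk3b group turned in sign. The cause of these differences was not tested. Depth limits single genes: 10 UMIs in the members are 10.3 CPM (4.92 to 18.9), as for Arhgap20.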
